A study of Mus musculus with 9 samples.

Results

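In all, 10 transcripts used as markers of recruited and lipid-associated macrophages were followed in whole-liver mRNA: Trem2, Gpnmb, Cd9, Itgax, Lgals3, Mmp12, Ccr2, Ly6c2, Cd68 and Csf1r. They were taken by symbol from a gene count matrix of 24411 genes, and all 10 had a row. The matrix covered 9 mouse livers in 3 groups of 3, with mice of 3 months of age. The cont. group was Atg7 flox/flox without Cre, the Atg7-KO group carried Alb-Cre in addition, and the S351A group carried Alb-Cre and was homozygous for p62 S351A. All 3 groups therefore carried the floxed Atg7 alleles on a C57BL/6 background. Alb-Cre is driven by the albumin promoter, so Atg7 is removed in hepatocytes and not in macrophages, whereas the p62 S351A allele is a knock-in present in every cell. The allele lowers the retention of KEAP1, the inhibitor of the transcription factor NRF2, in p62 bodies, and the comparison of S351A with Atg7-KO asks what this does in a liver without hepatocyte autophagy. The p62 allele without Cre was not analysed here. The titles give S351A for all 3 mice of that group, while the genotype field of replicates 2 and 3 reads S352A and S353A for the other allele, and the titles were followed.

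The liver holds resident macrophages, the Kupffer cells, which carry Clec4f, Timd4 and Vsig4 and renew themselves with little input from blood. When Kupffer cells die or tissue is injured, Ly6C-high monocytes enter through the chemokine receptor CCR2 and mature into macrophages. In fatty or injured liver a part of them takes on the lipid-associated state, with TREM2, GPNMB, CD9 and SPP1, a state also described at fibrotic scars and in obese fat. The lipid receptor TREM2 signals through the adaptor TYROBP and the kinase SYK.

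Depth differed strongly between groups. Total counts ran from 1875314 to 15426566 in cont., from 1945469 to 3675041 in Atg7-KO and from 713835 to 792366 in S351A, so each S351A library was shallower than every other and depth and the p62 allele cannot be told apart. The floor of 3 counts per library corresponded to 0.267 to 1.89 CPM (counts scaled to a common library size, with TMM factors) in cont., 0.691 to 1.36 CPM in Atg7-KO and 3.42 to 3.70 CPM in S351A, and floors and counting intervals cover counting error only. Atg7 itself fell from a cont. mean of 48.1 ± 8.13 CPM (SD, n = 3) to 28.6 ± 1.15 (Atg7-KO) and 22.8 ± 1.62 CPM (S351A), with no overlap with cont. in either group. Sex read from the counts was 2 male and 1 female in cont. and 1 male and 2 female in each of the other groups.

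Of the 10 markers 9 had enough counts to be tested, and all 9 were higher in Atg7-KO than in cont. (edgeR quasi-likelihood test, Benjamini-Hochberg adjusted p under 0.05 and fold change above 1.5). Over all 11199 genes tested, 38.0% were called in this comparison and 19.9% were called higher. The same 9 were higher in S351A than in cont., where 28.6% of all genes were called and 15.6% were called higher. None of the 9 was called between S351A and Atg7-KO, where 0.00893% of all genes were called. Both comparisons with cont. share the 3 cont. livers and are not independent. Of the 9, Trem2, Gpnmb, Itgax, Mmp12, Ccr2 and Lgals3 reached the level of the low-count filter in fewer than 3 cont. livers and so passed it through the groups with Cre, where they were high, and the 9 of 9 is partly fixed by that filter. Cd9, Cd68 and Csf1r reached it in all 3 groups. The size of the change differed among the markers. Those of the lipid-associated state and Mmp12 stood far above cont., and the general macrophage genes Cd68 and Csf1r rose by less than 3-fold. The longer lists followed below did not keep this order. Median log2 fold changes in Atg7-KO and S351A were 1.47 and 1.07 for further lipid-associated genes. For 19 genes shared by all macrophages they were 1.88 and 1.31. In bulk tissue more macrophages and more RNA per macrophage cannot be told apart.

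**Figure D1:**
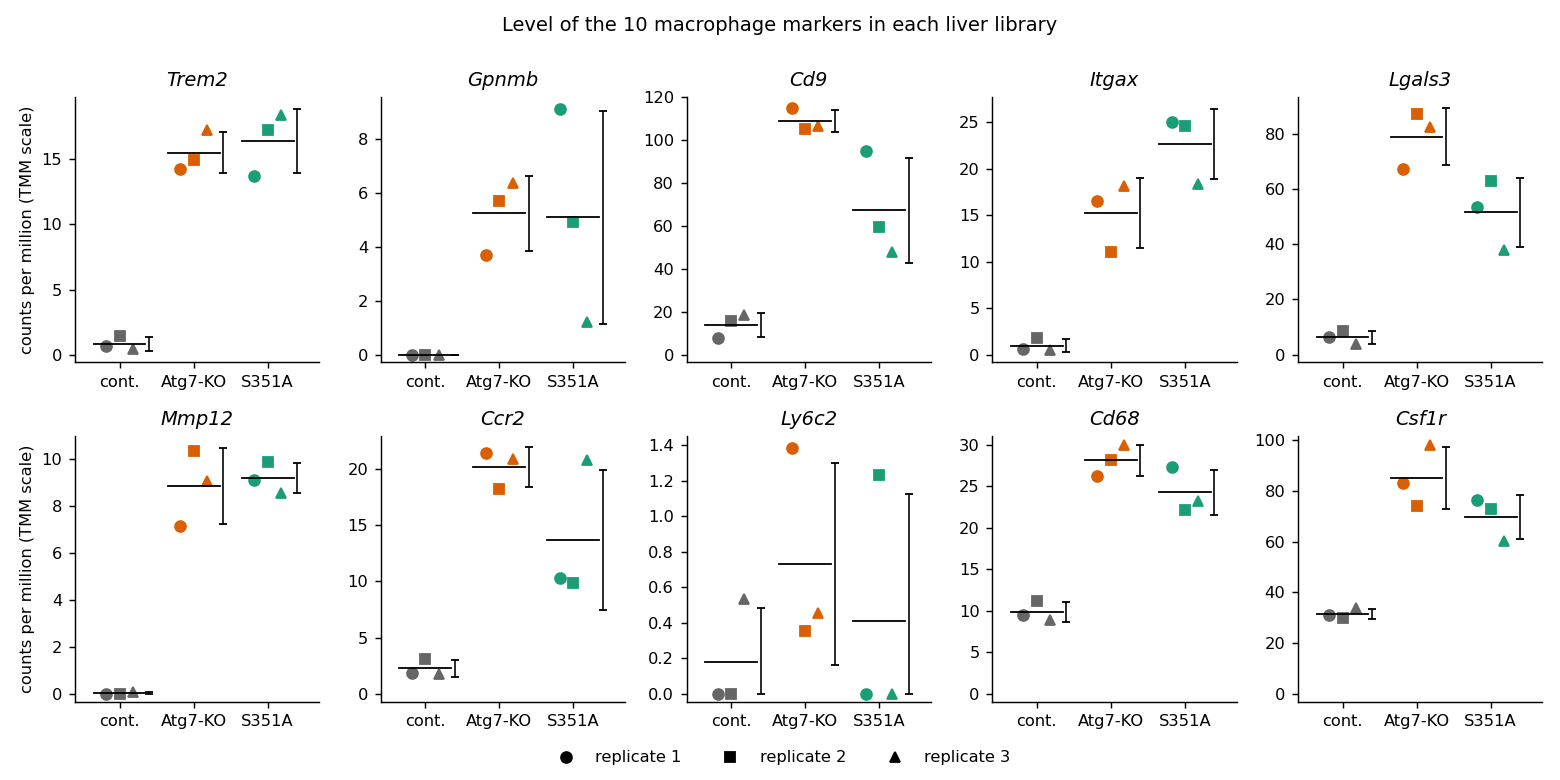
Level of each of the 10 markers in the 9 liver libraries, in CPM on the scale of the TMM (trimmed mean of M values) factors, with 1 panel per gene and its own linear axis. Points are libraries, horizontal lines are group means and the bars beside them are ± SD (n = 3). In 9 panels every Atg7-KO and S351A point lies above every cont. point, and in the Ly6c2 panel the groups overlap.

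The 250 bases before the transcription start are shown for 5 markers that stand for the different patterns, from RefSeq (GRCm38.p6), 5′ to 3′ on the strand of the gene. Motifs that a search of both strands found are in capitals: GAGGAA, the core bound by PU.1, the macrophage lineage factor, and TGANTCA, the AP-1 motif. Trem2 (chr17:48346151-48346400, plus strand) and Cd68 (chr11:69666171-69666420, minus strand) held both, Itgax (chr7:128129300-128129549, plus strand) held AP-1 alone, Mmp12 (chr9:7344147-7344396, plus strand, the first of its listed starts) held the PU.1 core alone, and Gpnmb (chr6:49036268-49036517, plus strand) held neither. No 2 matches in these windows overlap.
Trem2: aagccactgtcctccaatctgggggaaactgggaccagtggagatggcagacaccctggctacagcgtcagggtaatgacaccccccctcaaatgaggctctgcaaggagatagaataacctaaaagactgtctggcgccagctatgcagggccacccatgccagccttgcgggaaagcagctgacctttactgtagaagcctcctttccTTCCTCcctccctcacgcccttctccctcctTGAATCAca
Cd68: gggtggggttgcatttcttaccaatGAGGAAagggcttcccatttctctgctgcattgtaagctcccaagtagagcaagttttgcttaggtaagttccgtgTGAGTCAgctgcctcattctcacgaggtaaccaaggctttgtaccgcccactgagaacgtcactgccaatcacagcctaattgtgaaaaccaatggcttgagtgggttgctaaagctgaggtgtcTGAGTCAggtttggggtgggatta
Itgax: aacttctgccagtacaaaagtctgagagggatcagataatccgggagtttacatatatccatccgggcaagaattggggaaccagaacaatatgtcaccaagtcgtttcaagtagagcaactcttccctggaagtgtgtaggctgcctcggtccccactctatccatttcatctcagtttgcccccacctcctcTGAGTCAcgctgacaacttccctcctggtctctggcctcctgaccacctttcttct
Mmp12: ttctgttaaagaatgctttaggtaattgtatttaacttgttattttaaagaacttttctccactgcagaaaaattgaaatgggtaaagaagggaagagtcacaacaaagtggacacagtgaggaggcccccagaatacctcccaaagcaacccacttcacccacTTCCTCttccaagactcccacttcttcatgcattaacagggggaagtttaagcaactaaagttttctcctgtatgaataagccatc
Gpnmb: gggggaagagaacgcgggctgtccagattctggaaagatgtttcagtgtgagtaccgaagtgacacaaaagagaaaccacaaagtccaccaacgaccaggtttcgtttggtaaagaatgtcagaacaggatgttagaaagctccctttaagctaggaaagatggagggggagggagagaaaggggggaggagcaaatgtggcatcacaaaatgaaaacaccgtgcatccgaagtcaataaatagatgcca

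Of the 10 markers 9 had a window in this table. Mmp12 and Ly6c2 had 2 starts each, which made 11 windows. The PU.1 core was found in 5 of the 11 (Trem2, Cd68, the first start of Mmp12 and both of Ly6c2) and in 23.3% of all 32851 windows of this length. The 2 windows of Ly6c2 overlap and share a match, and by marker the PU.1 core was in 4 of 9. The AP-1 motif was found in 4 of the 11 (Trem2, Cd68, Itgax and the second start of Mmp12) and in 6.75% of all windows. The motif TCACGTG, bound by TFE and MITF factors, was in none of the 11 and in 3.13% of all, and TGACNNNGC, the core of the antioxidant response element bound by NRF2, was in none of the 11 and in 10.2% of all. In Trem2 both matches lay close to the start, the PU.1 core at 40 to 35 bases and the AP-1 motif at 9 to 3 bases before it. Cd68 held 2 AP-1 matches, the nearer at 24 to 18 bases before the start. A match is a description of letters and not a binding site.

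Trem2, the lipid receptor that names the lipid-associated state (chromosome 17, 48346401 to 48354147, mm10), was near the floor in cont., with 0.631, 1.40 and 0.445 CPM in replicates 1 to 3. It reached 14.3, 15 and 17.3 CPM in Atg7-KO and 13.7, 17.3 and 18.4 CPM in S351A. Both groups with Cre were clear of cont. and overlapped each other. The change was 21.4-fold in Atg7-KO (log2 4.42, SE 0.41, edgeR adjusted p = 1.05e-05) and 22.7-fold in S351A (log2 4.51, SE 0.44, adjusted p = 3.54e-05). Between S351A and Atg7-KO the log2 difference was 0.09, with a 95% interval from -0.61 to 0.78, so differences of up to 1.5-fold in either direction lie inside it. No 75-base window of its transcripts, the length of a read, occurs in another gene.

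Gpnmb, a lysosomal and cell surface glycoprotein of lipid-laden macrophages (chromosome 6, 49036546 to 49070929), had 0 counts in all 3 cont. livers. Atg7-KO livers had 16, 16 and 14 counts, or 3.69, 5.70 and 6.36 CPM. S351A livers had 8, 4 and 1 counts, or 9.13, 4.93 and 1.23 CPM, so its replicate 3 was below the floor of 3 counts. Against the per-library floor of the cont. group, Gpnmb was at least 4.91-fold higher in Atg7-KO and at least 4.76-fold higher in S351A (edgeR adjusted p = 4.12e-04 and 0.00156). The bound was 2.88 in S351A without its replicate 1, and without cont. replicate 1 it was 7.98 in Atg7-KO and 7.74 in S351A. Between S351A and Atg7-KO the interval of the log2 difference was wide, from -1.31 to 1.34.

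Mmp12, macrophage elastase, a protease that degrades elastin (chromosome 9, 7344381 to 7369499), was nearly absent from cont., with 0, 0 and 1 counts. Counts were 31, 29 and 20 in Atg7-KO and 8, 8 and 7 in S351A. On the CPM scale this was 7.14, 10.3 and 9.09 in Atg7-KO against 9.13, 9.86 and 8.58 in S351A, and these groups overlapped. The pooled ratio to the single cont. count was 134 in Atg7-KO (95% counting interval 23.4 to 5368) and 144 in S351A (23.4 to 5935), and both were called (edgeR adjusted p = 8.42e-06 and 3.23e-05). Mmp1b, which shares 2.11% of its 75-base windows, had 0 counts in all 9 libraries.

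Itgax, which encodes the integrin CD11c of dendritic cells and of activated macrophages (chromosome 7, 128129547 to 128150657), was at 0.631, 1.75 and 0.534 CPM in cont. The Atg7-KO livers were at 16.6, 11 and 18.2 CPM and the S351A livers at 25.1, 24.7 and 18.4 CPM. It was the only tested marker for which every S351A liver lay above every Atg7-KO liver, by a narrow gap, and 7.67% of all genes showed such a separation upward. The change was 17.7-fold in Atg7-KO (log2 4.14, SE 0.43, edgeR adjusted p = 2.72e-05) and 26.3-fold in S351A (log2 4.72, SE 0.46, adjusted p = 3.23e-05), and the step from Atg7-KO to S351A was not called (log2 0.57, 95% interval -0.16 to 1.30, adjusted p = 0.838). Of its 75-base windows 5.55% also occur in Itgad, which had 0 counts in 8 libraries and 1 count in an S351A liver. Of 7 dendritic cell genes 3 could be tested, Clec9a was not called, and 2 were called higher in both comparisons, having passed the filter through the groups with Cre: Siglech (log2 2.74 in Atg7-KO and 3.47 in S351A) and Xcr1 (1.54 and 3.00). Of all genes 19.9% and 15.6% were called higher. In Atg7-KO the count of 2 dendritic cell genes was not stable, with 1 called without cont. replicate 1 or 3, without any one Atg7-KO replicate, or without S351A replicate 1 or 2. The summed level of the 7 genes was 7.58 to 21.7 in cont., 29.9 to 34.3 CPM in Atg7-KO and 31.9 to 51.8 CPM in S351A, and no gene of the list was at 0 in every library. The part of dendritic cells in the Itgax values was not tested.

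Lgals3, galectin-3, a secreted lectin of activated macrophages (chromosome 14, 47367751 to 47386160), was at 6.31, 8.74 and 4.00 CPM in cont. It was at 67.3, 87.0 and 82.2 CPM in Atg7-KO and at 53.6, 62.9 and 38.0 CPM in S351A. All 3 groups were apart, with S351A between the others. The change was 13.3-fold in Atg7-KO (log2 3.73, SE 0.30, edgeR adjusted p = 4.69e-06) and 8.71-fold in S351A (log2 3.12, SE 0.32, adjusted p = 4.50e-05). S351A stood lower than Atg7-KO by log2 -0.61 (SE 0.27), with an unadjusted p of 0.0413 that gave 0.754 after adjustment over all genes by edgeR.

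Cd9, a tetraspanin of the membrane of lipid-associated macrophages that platelets and bile duct cells also carry (chromosome 6, 125460266 to 125494791), was the member with the highest mean level per kilobase in every group. It was at 7.58, 15.7 and 18.3 for cont., at 115, 105 and 106 for Atg7-KO and at 94.7, 59.2 and 47.8 for S351A (CPM). Again the 3 groups did not overlap and S351A lay in the middle, with its replicate 1 near the Atg7-KO livers. The change was 7.38-fold in Atg7-KO (log2 2.88, SE 0.30, edgeR adjusted p = 2.80e-05) and 4.57-fold in S351A (log2 2.19, SE 0.31, adjusted p = 4.35e-04), and the difference between them was log2 -0.69 (SE 0.29, unadjusted p = 0.0345, edgeR adjusted p = 0.742). Of its 75-base windows 12.5% are shared with Gm26728, a gene on the opposite strand, and the library kit was not stated to keep strand. Ductular genes rose beside Cd9 and Lgals3: 7 of 7 were called higher in both comparisons, among them Epcam (log2 3.56 and 3.92) and Krt19 (3.33 and 3.69), and 4 of the 7 passed the filter through the groups with Cre, beside 19.9% of all genes called higher in Atg7-KO and 15.6% in S351A. Their summed level was 74.1 to 124 in cont., 867 to 1265 CPM in Atg7-KO and 783 to 1264 CPM in S351A. The list holds Spp1, which lipid-associated macrophages also express, and without it the other 6 summed to 44.4 to 94.7 in cont., 268 to 392 CPM in Atg7-KO and 233 to 509 CPM in S351A. No gene of the list was at 0 in all libraries of a group. The part of bile duct cells in the Cd9 and Lgals3 values was not tested.

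Ccr2, the receptor through which monocytes leave the bone marrow and enter tissue (chromosome 9, 124101950 to 124113557), was at 1.89, 3.15 and 1.78 CPM in cont. It rose to 21.4, 18.2 and 20.9 CPM in Atg7-KO and to 10.3, 9.86 and 20.8 CPM in S351A. The S351A livers were split, with replicate 3 at the level of Atg7-KO and replicates 1 and 2 lower. The change was 9.18-fold in Atg7-KO (log2 3.20, SE 0.35, edgeR adjusted p = 3.63e-05) and 6.20-fold in S351A (log2 2.63, SE 0.41, adjusted p = 7.07e-04), and S351A and Atg7-KO overlapped (log2 -0.57, 95% interval -1.30 to 0.16).

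Ly6c2, one of the genes of the Ly6C antigen that marks inflammatory monocytes, was the member that could not be tested. Its deposited estimates were 0, 0 and 5.88 counts for cont., 5.72, 1.21 and 1.21 for Atg7-KO and 0, 1 and 0 for S351A. These groups overlapped and most libraries were below the floor of 3 counts, so no difference in Ly6c2 was detectable at this depth. RSEM divides reads that fit several genes between them, and the neighbour Ly6c1 had 14.28, 10.79 and 4.79 counts in Atg7-KO, 0.12 in cont. replicate 3, 0 in the other cont. livers and 2, 0 and 2 in S351A. The estimates of the pair summed to whole counts in every library: 0, 0 and 6 for cont., 20, 12 and 6 for Atg7-KO and 2, 1 and 2 for S351A. On the CPM scale the sum was 0 to 0.534 in cont., 2.73 to 4.61 in Atg7-KO and 1.23 to 2.45 in S351A, so the 3 groups did not overlap. No S351A liver had more than 2 counts, and the sum had too few counts for the test. Among all tested genes 26.7% lay above cont. without overlap in Atg7-KO and 19.6% in S351A, and 9.23% lay lower in S351A than in Atg7-KO. Ly6c1, which made up most of the sum in Atg7-KO, is also in the list of endothelial genes. The part of endothelial cells in the sum was not tested. The pair lies on chromosome 15, Ly6c2 at 75108158 to 75111970 and Ly6c1 at 75044018 to 75048830, both on the minus strand. Their coding sequences of 393 bases differ at 9 positions (97.7% identity), and 114 of the 319 windows of 75 bases in them are identical. The first 75 coding bases, which hold 6 of the differences, are shown to let the reads that can separate the pair be seen, with the differing bases in capitals.
Ly6c2: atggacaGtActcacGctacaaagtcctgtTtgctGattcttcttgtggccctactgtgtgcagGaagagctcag
Ly6c1: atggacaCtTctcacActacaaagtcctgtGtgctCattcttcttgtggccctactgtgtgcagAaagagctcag

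Cd68, a lysosomal scavenger protein of all macrophages (chromosome 11, 69664213 to 69666153), was at 9.47, 11.2 and 8.89 for cont., 26.3, 28.2 and 30.0 for Atg7-KO and 27.4, 22.2 and 23.3 for S351A (CPM). Csf1r, the receptor for the macrophage growth factors CSF1 and IL-34 (chromosome 18, 61100598 to 61132149), was at 30.9, 30.1 and 33.9 for cont., 82.9, 74.1 and 98.1 for Atg7-KO and 76.4, 72.7 and 60.0 for S351A (CPM). Neither overlapped cont. in the groups with Cre, and S351A and Atg7-KO overlapped for both. Cd68 rose 2.87-fold in Atg7-KO (log2 1.52, SE 0.21, edgeR adjusted p = 1.57e-04) and 2.49-fold in S351A (log2 1.32, SE 0.23, adjusted p = 0.00166). Csf1r rose 2.67-fold (log2 1.42, SE 0.19, edgeR adjusted p = 1.34e-04) and 2.19-fold (log2 1.13, SE 0.20, adjusted p = 0.00146). Of the 75-base windows of Csf1r 15.9% occur in Hmgxb3, and Hmgxb3 was not called in either comparison with cont. (log2 0.10 and 0.02).

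**Figure D2:**
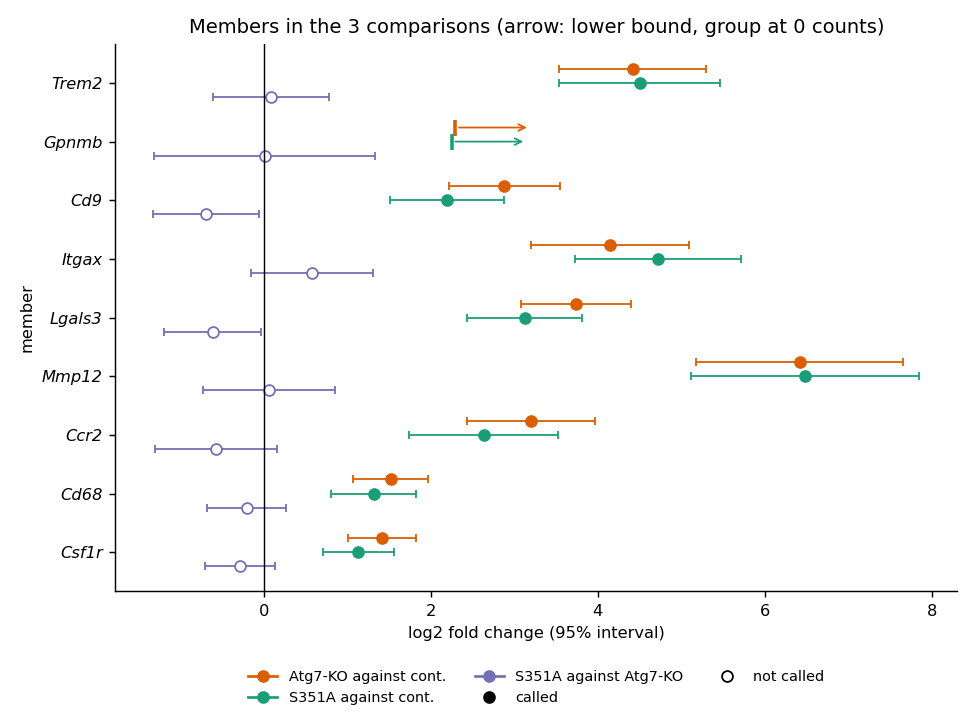
Log2 fold changes of the 9 tested markers from the edgeR fit, with 95% intervals, in the 3 comparisons; filled points were called and open points were not. Gpnmb, at 0 counts in every cont. liver, is drawn against cont. as an arrow from its lower bound (log2 2.29 in Atg7-KO and 2.25 in S351A). The comparisons with cont. lie between 1.13 and 6.48 for the other markers, the highest being Mmp12, fitted against 1 cont. count, and the S351A against Atg7-KO points lie between -0.69 and 0.57.

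Across the 7 tested markers other than Gpnmb and Mmp12, which had 0 and 1 cont. counts, log2 fold changes ran from 1.42 to 4.42 in Atg7-KO and from 1.13 to 4.72 in S351A. With Gpnmb at its bound the median of the 9 was 3.20 in Atg7-KO and 2.63 in S351A, and the medians of all genes were -0.03 in both. In the test for any difference among the 3 groups all 9 were called, with adjusted p from 1.54e-05 to 0.00102 (edgeR), and 35.1% of all genes were, with the same limit of the filter for 6 of the 9. Every value of these 9 in a group with Cre lay above every cont. value, and thus also within each sex. Among all tested genes 26.7% showed this separation upward in Atg7-KO and 19.6% in S351A.

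Between S351A and Atg7-KO, edgeR, DESeq2 and limma-voom each called 0 of the 9. At an unadjusted p under 0.05 edgeR had 2, Cd9 and Lgals3, both lower in S351A, and of all genes 3.22% were lower and 3.38% higher at that level. In all, 3 members did not overlap between these groups, Itgax upward and Cd9 and Lgals3 downward, where 7.67% and 9.23% of all genes did so. The S351A values rest on 1 to 83 counts per library, and the median of the 9 differences was -0.21, with 0.01 over all genes. The intervals of Cd68 (-0.68 to 0.27) and Csf1r (-0.70 to 0.13) reach below 0, while the steps from cont. to Atg7-KO were 1.52 and 1.42 on the log2 scale.

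Per kilobase of the longest coding transcript, which allows genes to be set against each other, the order of the levels in cont. was Cd9 (11.3 CPM per kb), Cd68 (8.01), Csf1r (6.73), Lgals3 (4.48) and Trem2 (0.758), with the other 5 below 0.4. In cont. Cd9 overlapped both Cd68 and Csf1r. In Atg7-KO Lgals3 stood at 55.5 CPM per kb and had passed Cd68 at 22.9 and Csf1r at 18.1, while Cd9 led with 88.5 and Trem2 followed with 14.3. Lgals3 and Cd68 did not overlap there. In S351A the order was Cd9 (54.7), Lgals3 (36.3), Cd68 (19.7), Trem2 (15.1) and Csf1r (14.8), where Cd9 and Lgals3 overlapped and so did Trem2 and Csf1r. Itgax, Ccr2, Mmp12 and Gpnmb stayed between 1.38 and 5.61 CPM per kb in both groups with Cre, and Ly6c2 was last.

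To ask how each marker moved beside other macrophage transcripts, its level was divided by the sum of 19 pan-macrophage genes in the same library. This sum was 253 to 379 in cont., 1156 to 1341 CPM in Atg7-KO and 848 to 1219 CPM in S351A. With 3 against 3 livers the two-sided exact permutation test cannot go below 0.1, and Trem2, Gpnmb, Itgax, Mmp12, Ccr2 and Ly6c2 had too few cont. counts for this measure. Lgals3 was 2.49%, 2.30% and 1.24% of the sum for cont., 5.67%, 7.52% and 6.13% for Atg7-KO and 5.40%, 5.16% and 4.48% for S351A. Its share did not overlap cont. in either group with Cre and lay higher by log2 1.73 and 1.38 (exact permutation p = 0.1 for each). The share of Cd9 was higher in Atg7-KO by log2 1.10 (exact permutation p = 0.1), and in S351A it overlapped cont. (log2 0.63, exact permutation p = 0.3). Csf1r went the other way, at 12.2%, 7.93% and 10.5% of the sum for cont., 7.00%, 6.41% and 7.32% for Atg7-KO and 7.70%, 5.97% and 7.08% for S351A (log2 -0.54 and -0.55, exact permutation p = 0.1 for each). The share of Cd68 was lower in Atg7-KO by log2 -0.44 (exact permutation p = 0.1) and overlapped cont. in S351A. None of these differences in share can pass 0.05 in this design. Among all tested genes with over 3 counts in every library compared, 89.1% had a lower share without overlap in Atg7-KO and 83.1% in S351A, so the lower shares of Csf1r and Cd68 are the common case, and 1.41% had a higher share in Atg7-KO and 1.41% in S351A.

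The same measure could be taken for 8 markers between S351A and Atg7-KO. The share of Itgax was 1.40%, 0.956% and 1.36% in Atg7-KO and 2.53%, 2.02% and 2.17% in S351A, apart by log2 0.87. Trem2 was 1.20%, 1.30% and 1.29% against 1.38%, 1.42% and 2.17%, apart by log2 0.36. Lgals3 was lower in S351A, apart by log2 -0.36. These 3 did not overlap (exact permutation p = 0.1, the smallest the design allows), and the other 5 overlapped. Among all genes measured in the same way 21.5% had a higher share in S351A without overlap and 1.38% a lower one. With the sum of Cd68 and Csf1r as the reference in place of the list, Itgax stayed apart (log2 0.86), and Trem2 and Lgals3 overlapped (exact permutation p = 0.3 for each).

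**Figure D3:**
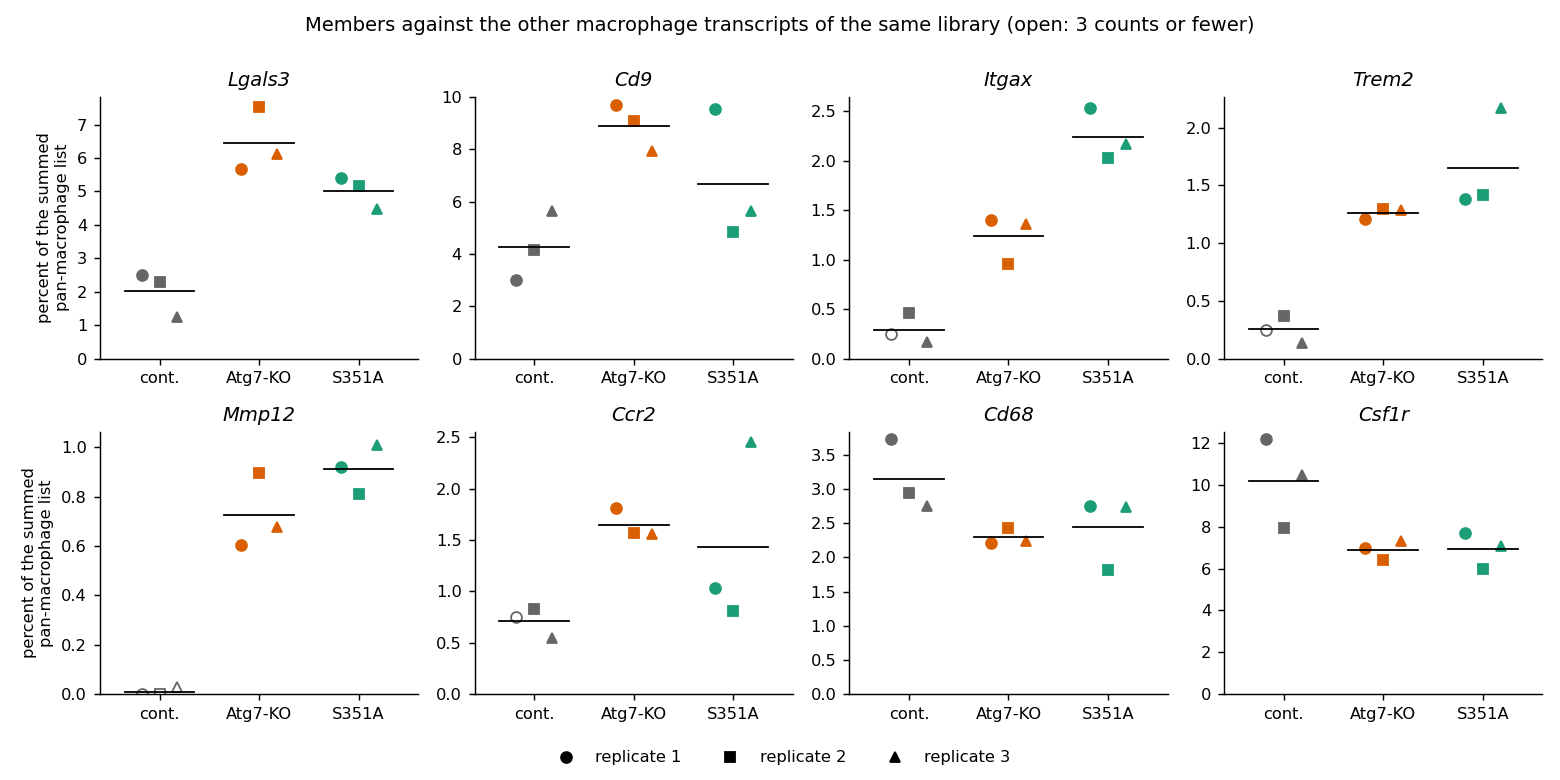
Level of 8 markers in each library as a percent of the summed CPM of 19 pan-macrophage genes in the same library, on linear axes that start at 0. Points are libraries, open where the marker had 3 counts or fewer, and lines are group means. Lgals3 spans 1.24% to 2.49% in cont. and 5.67% to 7.52% in Atg7-KO, Csf1r lies lower in both groups with Cre, and every S351A point of Itgax lies above the Atg7-KO points.

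Further genes of the lipid-associated state were followed as a list. Of 28 listed genes 26 were tested, 17 were higher and 2 lower in Atg7-KO, and 15 were higher and 1 lower in S351A, with median log2 fold changes of 1.47 and 1.07, beside 19.9% of all genes called higher in Atg7-KO and 15.6% in S351A. Of those called higher, 6 in Atg7-KO and 5 in S351A, Ms4a7, Cd63 and Capg among them, passed the filter through the groups with Cre. Without S351A replicate 2 the 16 called in S351A were 10. Ms4a7, a membrane protein of monocyte-derived macrophages, went from 0.146 CPM to 11.4 CPM with Atg7-KO and 7.87 CPM with S351A (log2 6.08 and 5.54). Its cont. livers were at 0 to 0.350 CPM, below the floor of 3 counts, so the size of these folds is uncertain. Spp1, osteopontin, changed by log2 4.37 and 4.08, and Lpl, lipoprotein lipase, by 3.82 and 3.75. Cd63, a lysosomal tetraspanin, changed by 4.26 in Atg7-KO, and Capg, an actin-capping protein, by 3.80 in S351A. The genes that were lower, Apoe in both comparisons (log2 -1.48 and -1.36) and Igf1 in Atg7-KO (log2 -1.85), are also abundant hepatocyte products, and 8 of 8 hepatocyte genes were called lower in both comparisons, with 2028 and 1460 of the 11199 tested genes called lower. In S351A the 8 became 5 without its replicate 1 and 4 without its replicate 2. The part of hepatocytes in the Apoe and Igf1 values was not tested. Among the 7 genes not called in Atg7-KO were Fabp4, a fatty acid binding protein (log2 -0.11), Plin2, a lipid droplet protein (-0.15), Ctsl, a lysosomal protease (0.02), Grn, progranulin (0.10), and Mitf, a regulator of lysosomal genes and of Gpnmb (-0.01). Spp1 is also a gene of ductular cells.

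Signalling partners of TREM2 and the proteases Adam10 and Adam17, which cleave it, were followed as a list of 11, of which 9 were tested. In Atg7-KO 8 were higher, Adam10 among them (log2 0.73), and in S351A 5, beside 19.9% and 15.6% of all genes called higher. Adam10 was not called in S351A (log2 0.41), and Adam17 was not called in either (0.33 and 0.19). Of these, 4 in Atg7-KO and 2 in S351A, Plcg2 among them, passed the filter through the groups with Cre. Tyrobp, the adaptor that TREM2 needs to signal, was at 9.71 ± 0.708 for cont., 39.0 ± 1.76 for Atg7-KO and 37.3 ± 10.4 for S351A (CPM, SD over n = 3), a change of log2 2.02 and 1.96. Plcg2, a phospholipase C downstream of SYK, changed by log2 2.00 and 2.87. Both were below the change of Trem2 itself, and the difference was not tested. Tyrobp is also in the list of the lipid-associated state.

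Monocyte genes were followed as a list of their own. Of 15 listed, 9 were tested, 7 were higher in Atg7-KO and 5 in S351A, where 19.9% and 15.6% of all genes were called higher. Of those called, 6 in Atg7-KO and 4 in S351A reached the filter level in fewer than 3 cont. livers, Cx3cr1, Cd14 and Ly6a among them, so these counts are largely fixed by the filter. Cx3cr1, the fractalkine receptor, went from 2.75 ± 1.55 for cont. to 70.7 ± 19.9 for Atg7-KO and 65.9 ± 21.9 CPM for S351A (log2 5.09 and 4.98). Cd14, the coreceptor for endotoxin, changed by log2 4.18 and 4.05. Ly6a, which many other cells carry too, changed by 5.83 and 5.23. The classical monocyte genes Chil3, F13a1, S100a4, Vcan and Ifitm6 did not pass the filter on low counts, as with Ly6c2, and were not tested.

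Among the ligands, Ccl2, the chemokine that binds CCR2, passed the filter through the groups with Cre and was at 0.409 ± 0.561 for cont., 18.5 ± 0.969 for Atg7-KO and 19.9 ± 9.02 CPM for S351A (log2 5.62 and 5.73, edgeR adjusted p = 2.19e-05 and 6.20e-05). Csf1, a ligand of CSF1R, rose by log2 1.85 and 1.28, and Il34, the other ligand, was called in Atg7-KO alone (log2 1.47), with 1.67 and an adjusted p of 0.0688 by edgeR in S351A, and no difference between them was called. The other listed ligand genes, Ccl7, Ccl8, Ccl12 and Csf2, did not pass the filter.

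Genes shared by all macrophages rose in 17 of 19 in Atg7-KO and in 13 of 19 in S351A, with medians of log2 1.88 and 1.31 and with 19.9% and 15.6% of all genes called higher. Of these, 9 in Atg7-KO and 6 in S351A passed the filter through the groups with Cre. Without S351A replicate 1 the 14 called in S351A in either direction were 9. Cybb, a subunit of the phagocyte NADPH oxidase, changed by log2 3.51 and 3.64 and Mpeg1, perforin-2, by 2.75 and 2.40. Mertk, a receptor for dying cells, was lower in Atg7-KO (log2 -1.58).

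Of the 12 genes of resident Kupffer cells 10 were tested, none was called higher, and 2 were lower in Atg7-KO and 1 in S351A, with a median of log2 -0.48 in both. Of all genes 18.1% (2028 of 11199) were called lower in Atg7-KO and 1460 of 11199 in S351A, and 1 of 10 is below that share. Without cont. replicate 1 the S351A count was 2. Clec4f, a lectin of Kupffer cells, had means of 142 ± 31.5 (cont.), 127 ± 37.9 (Atg7-KO) and 92.9 ± 21.8 CPM (S351A), and was not called (log2 -0.16 and -0.61, edgeR adjusted p = 0.67 and 0.122, the latter 0.0499 before adjustment). Cd163, the haemoglobin scavenger receptor, fell from 15.3 ± 1.84 CPM to 1.28 ± 0.550 CPM with Atg7-KO and 1.63 ± 2.83 CPM with S351A (log2 -3.64 and -3.24, edgeR adjusted p = 3.59e-04 and 0.00544). Timd4, which marks Kupffer cells of embryonic origin, fell from 7.64 ± 0.879 CPM to 2.18 ± 1.44 CPM in Atg7-KO (log2 -1.92), and was at 4.00 ± 1.90 CPM in S351A, not called. The summed level of the 12 genes was 424 to 531 in cont., 302 to 400 CPM in Atg7-KO and 308 to 408 CPM in S351A. No gene of any of these lists was called between S351A and Atg7-KO.

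**Figure D4:**
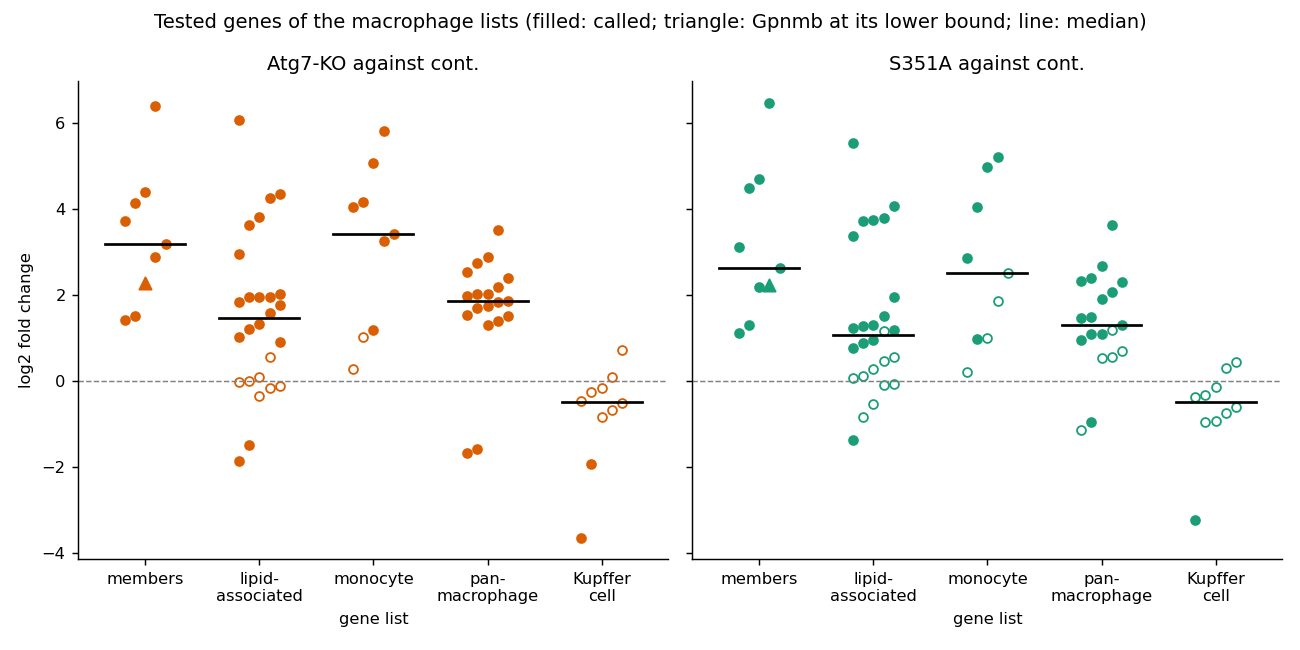
Log2 fold changes of the tested genes of the macrophage lists against cont., 1 point per gene, in Atg7-KO on the left and S351A on the right; filled points were called, lines are medians, and the triangle is Gpnmb at its lower bound. The members and the monocyte list have their medians above 2, and the Kupffer cell list has a median of -0.48 in both panels.

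Other cell types that could bring these transcripts were followed too. Of 7 neutrophil genes 6 were in the table and none passed the filter, with summed levels of 2.49 to 5.59 in cont., 5.99 to 10.9 CPM in Atg7-KO and 3.68 to 7.98 CPM in S351A, and Mpo and Elane were at 0 in all cont. and Atg7-KO libraries. Of 9 lymphocyte genes 2 were tested and Cd8a, which passed the filter through the groups with Cre, was higher in both (log2 4.22 and 4.14), and the summed level was 6.40 to 12.2 in cont. and 15.9 to 27.4 CPM in the groups with Cre. Of 5 tested endothelial genes 2 were lower in Atg7-KO and none was called in S351A, where 2028 and 1460 of the 11199 genes tested were called lower. Without single libraries these calls moved: Cd8a was not called in S351A without its replicate 1, and of the endothelial genes 1 was called in Atg7-KO without any one Atg7-KO replicate and 2 in S351A without cont. replicate 1 or S351A replicate 3. Collagen and stellate cell genes were higher in 5 of 7 in both comparisons (19.9% and 15.6% of all genes), among them Col1a1 (log2 4.44 and 3.95), 1 of the 2 of these 5 that passed the filter through the groups with Cre, and the summed level of the 7 was 93.5 to 188 in cont., 808 to 967 CPM in Atg7-KO and 595 to 801 CPM in S351A. The part of these cells in the values of the 10 markers was not tested.

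The genes whose course over the 9 livers was most like the median of the 9 tested markers, among 8785 candidates, were Mki67, Ly6e, Ifi27l2a, Olfml3 and Foxm1, with root mean square differences of 0.234 to 0.274 on the log2 scale. Mki67, the proliferation antigen, was at 3.82 ± 0.364 for cont., 46.7 ± 8.51 for Atg7-KO and 33.9 ± 2.85 for S351A (CPM). Foxm1, a transcription factor of dividing cells, was at 1.42 ± 0.458, 16.2 ± 4.18 and 14.4 ± 2.58 CPM. Ly6e and Ifi27l2a are interferon-induced genes, and Olfml3 encodes a secreted matrix protein of microglia and stroma. Over the 6 livers with Cre alone, 2 of these 5, Foxm1 and Ly6e, remained among the closest 5. Likeness over 9 bulk livers in 3 groups mostly follows the group means.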

How the data were processed

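Poly(A) RNA of 9 livers was prepared with the NEBNext Ultra II RNA kit and sequenced as 75-base single-end reads. Per the labels and the methods of the study, the authors trimmed reads with Trim Galore, aligned them to mm10 with STAR and estimated counts with RSEM (versions, annotation and strand setting are not given in the sources used here). The deposited values are expected counts, not normalized, and they were rounded to whole numbers. The study describes the 3 samples of a group as biological replicates.

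The 10 members and all gene lists were chosen with earlier results of these data known. One edgeR fit (version 4.0.16, R 4.3.3) covered the 9 libraries with a term per group, TMM factors, edgeR's filter on low counts (minimum count 10, minimum total 15) and the quasi-likelihood test, which left 11199 of 24411 genes. A gene was called at a Benjamini-Hochberg adjusted p under 0.05 over all tested genes and a fold above 1.5, the study's thresholds. SE is the log2 fold change divided by the root of F. CPM used TMM-scaled library sizes. All members are named; from each list at most 4 called genes per direction with a mean of at least 5 CPM, ranked by fold, and defining genes; and the 5 genes most like the members, among those with a mean of at least 10 CPM. Same-numbered livers correlated above 0.1 in all 3 pairs of S351A with cont. (0.160 to 0.235) and not in all pairs of the other comparisons. A replicate block changed no call of a member, and replicate number went partly with sex. DESeq2 1.42.0, limma 3.58.1, other scalings, filters, thresholds, a replicate block, sex, thinned counts, a joint Ly6c1 and Ly6c2 row and leaving out each library were tried. The fit was also run on simulated data, and the outcome is not reported here. Gene positions and 75-base windows came from GENCODE M21 (mm10), in which 23376 of the 24411 symbols were found. Values of some single genes of the lists are not reported here.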

Additional observations from a re-analysis of the deposited data

How the results depend on the processing

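Against cont., every tested marker kept its direction and its call under each alternative that kept it in the test, and 9 were called without any single library. Filters on low counts lowered the count of members: 10 counts in every library left 4 members called in Atg7-KO, 4 in S351A and 4 over the 3 groups, thinning to the smallest library left 7, and a fit of the 6 libraries compared left 8 in S351A. The median log2 share of the pan-macrophage sum, 0.33 in Atg7-KO and 0.13 in S351A, was 1.94 and 1.51 with Cd68 and Csf1r as the reference, which takes both out of the markers compared. It is a median over 4 members that moved both ways, and in S351A it ran from -0.07 (without S351A replicate 1) to 0.32 (without S351A replicate 2).

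Between S351A and Atg7-KO, uncalled differences near 0 changed sign, and the cause was not tested. Gpnmb, at 0.01, became -0.043 with total library sizes, -0.029 without the 20 most abundant genes, -0.056 with no filter, -0.0068 with DESeq2 and -0.082 with limma-voom. Without single libraries Gpnmb ran from -0.74 (S351A replicate 1) to 0.46, with -0.23 without Atg7-KO replicate 1, Trem2 from -0.0043 to 0.21 and Mmp12 from -0.091 to 0.19. Trem2 was -0.045 with thinned counts.

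With the replicate number as a block, 9, 9 and 0 members and 4313, 3410 and 1 of all genes were called. Same-numbered livers correlated at -0.041 to 0.306, and 13 of 18 were closest to their own number. Replicate 1 was male and replicate 2 female in every group, so likeness by number and by sex cannot be told apart.

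Over all genes, 4254 (Atg7-KO), 3206 (S351A) and 1 (S351A against Atg7-KO) were called. These became 2505, 1942 and 0 with 10 counts in every library, 2623, 2070 and 3 with thinned counts, and 2796, 1739 and 0 at an adjusted p under 0.01. S351A gave 1853 with the 6 libraries compared and 2099 without its replicate 1. The groups with Cre gave 10 with their 6 libraries, 98 with no filter, 40 with DESeq2, 0 with limma-voom and 0 to 3 without single libraries. Total library sizes moved the median of all genes to 0.51 and 0.46, and leaving out the 20 most abundant genes to 0.40 and 0.36. Ly6c2 without a filter was at log2 1.13, 0.15 and -0.99 (edgeR adjusted p = 0.463, 1 and 0.917), and the joint Ly6c row did not pass the filter.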
